A study of Mus musculus with 4 samples.

Results

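The ventral tegmental area (VTA) of mice that had been injected with a DREADD virus and given vehicle water (GqVeh) was compared with the VTA of uninjected mice given clozapine-N-oxide (CNO alone). A DREADD is an engineered receptor that responds to CNO, so these are the study's control groups, each carrying a part of the treatment: the virus without its ligand, and the ligand without the virus. The comparison used every VTA value of these groups, from 5 of the 8 mice and 5 of the 47 combinations of mouse and region in the series. The GqVeh mice (784, 785 and 802) received bilateral midbrain injections of a conditional AAV carrying hM3Dq(Gq)-mCherry and then drank water with 2% sucrose for 1 week. The CNO alone mice (C1W7 and C2W2) had no injection and drank CNO at 300 mg/L in 2% sucrose for 1 week. All were male DAT (iCre/iCre) mice of 3 to 4 months, singly housed with a running wheel. Both copies of the Cre allele sit at the dopamine transporter gene, so the conditional virus is switched on in dopamine neurons. The groups differed in surgery, virus and CNO at the same time, and the parts that these play in any difference cannot be told apart. The remaining mice (GqCNO 781, 801 and 804), which had both virus and CNO, entered the fit only to estimate the spread between mice. They also counted in the filter on low levels, which kept genes with a mean of at least 0.25 over all 8 mice.

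RNA was captured from 10 µm sections on barcoded Visium discs, and a unique molecular identifier (UMI) marked each captured transcript. The authors took discs that covered a whole TH-positive cell body and expressed 2 or more of the dopamine genes Th, Slc6a3 and Slc18a2. In injected mice that cell body also had to be positive for mCherry, the tag of the virus, so GqVeh discs were chosen for virus-carrying cells and CNO alone discs were not. They left out discs high in the astrocyte genes Gfap and Aldh1l1 or the microglial genes Aif1 and P2ry12. Each disc holds several cells, so a disc chosen for a dopamine neuron also holds RNA of the cells around it. Disc number and depth went with the group. The GqVeh mice 784, 785 and 802 had 20, 2 and 13 VTA discs with 203840, 25808 and 85389 UMIs, against 49 and 37 discs with 350222 and 291469 UMIs in CNO alone mice C1W7 and C2W2. A single UMI in mouse 785 is worth 0.388 UMIs per 10000, and its values are therefore the least precise. Levels below are UMIs per 10000 UMIs of the same mouse and region. Log2 differences are GqVeh minus CNO alone after adding 0.5, which understates the difference for genes at low levels. In the caudate putamen, lateral septal complex and white matter 0.05 was added instead. Nothing in the labels ties mice to litters or surgery days, and p-values measure the spread between these mice.

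B2m and H2-K1, the marker genes given for this contrast, belong to antigen presentation. Class I molecules of the major histocompatibility complex (MHC) show peptides from inside a cell to T cells, and consist of a heavy chain, such as H2-K1 or H2-D1, and the light chain B2m. Neurons and glia of the healthy brain hold little of them, and interferons raise their transcription in most cell types. The dopamine neurons of the VTA project to the ventral striatum and cortex and serve in reward and motivation.

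Of 6312 genes tested in the VTA with limma, 5 were higher in GqVeh mice at an adjusted p under 0.05, which is 0.0792% of the genes, and 0 were lower (0%). The 5 were B2m, H2-D1, H2-K1, Bst2 and Chrm3. At an unadjusted p under 0.05 there were 54 higher genes (0.856%) and 75 lower genes (1.19%). edgeR's quasi-likelihood test on the UMIs, which gives deeper mice more weight, called 45 genes higher (0.713%), these 5 among them, and 0 lower. The count rested on single mice: 0 genes passed in limma without GqVeh 784, GqVeh 802 or CNO alone C1W7, 1 gene (B2m) without CNO alone C2W2, and 17 without GqVeh 785. It was 3 (B2m, H2-D1 and Chrm3) with the array pair as a block, and 0 with TMM scaling, without the filter on low levels, without the variance trend and in a fit of the 5 mice alone, while the 5 genes kept their direction throughout. The median log2 difference over all genes tested was -0.01. The plot of all genes tested shows the 5 on the right. Gfap and Ctss, which did not pass, have log2 differences close to that of Bst2 but lie below it in the plot.

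**Figure D1:**
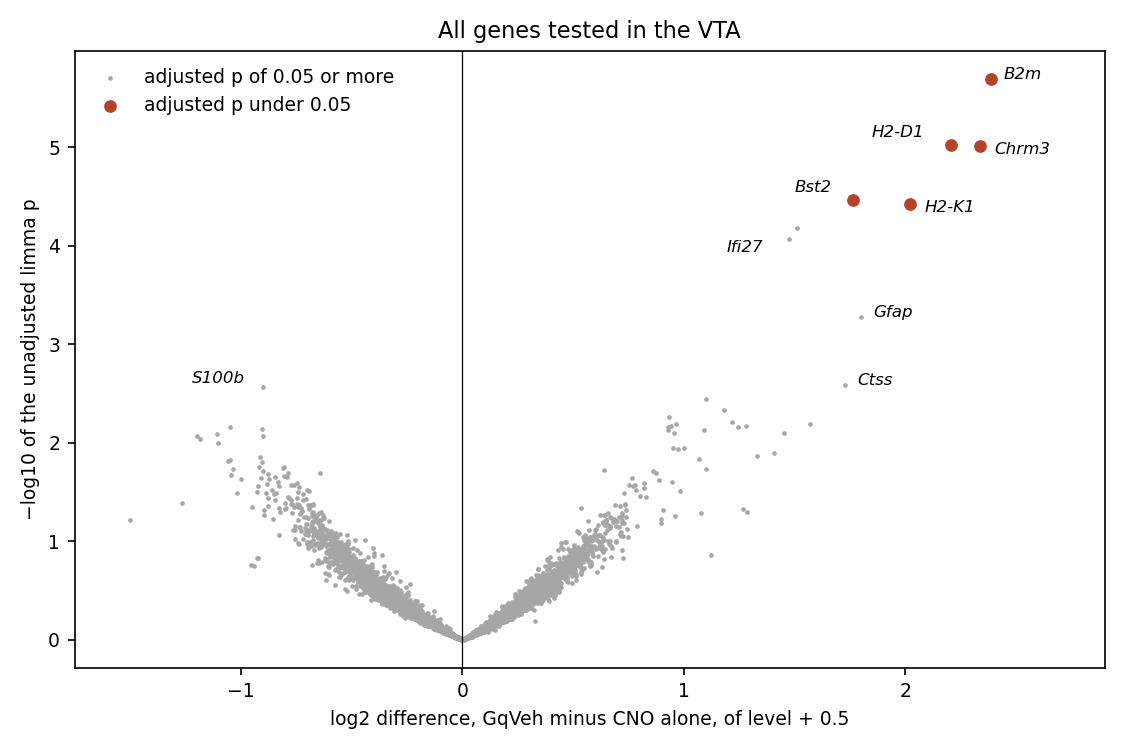
Each point is 1 of the 6312 genes tested in the VTA, with its log2 difference (GqVeh minus CNO alone) on the x axis and −log10 of its unadjusted limma p on the y axis. The 5 genes with an adjusted p under 0.05 (red) all lie on the right, and no gene on the left passed.

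The promoter windows of the antigen-presentation genes and of Bst2 are shown because these genes were higher together and interferon response elements are known from class I promoters. Sequences are the 250 bases before the RefSeq start site on GRCm38.p6, 5′ to 3′ on the gene's strand. Capitals mark matches on either strand to GAAANNGAAA, the core of the interferon-stimulated response element, or to TTTCACTT, a form of that element in class I promoters which was chosen after these sequences had been read. The patterns can overlap each other in a promoter, though they do not in these.
B2m (chr2:122147437-122147686, + strand): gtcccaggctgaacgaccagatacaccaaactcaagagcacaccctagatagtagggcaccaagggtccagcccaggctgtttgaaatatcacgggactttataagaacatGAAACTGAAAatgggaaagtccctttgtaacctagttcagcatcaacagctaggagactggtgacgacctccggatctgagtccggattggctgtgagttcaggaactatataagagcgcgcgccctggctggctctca
H2-D1 (chr17:35262844-35263093, + strand): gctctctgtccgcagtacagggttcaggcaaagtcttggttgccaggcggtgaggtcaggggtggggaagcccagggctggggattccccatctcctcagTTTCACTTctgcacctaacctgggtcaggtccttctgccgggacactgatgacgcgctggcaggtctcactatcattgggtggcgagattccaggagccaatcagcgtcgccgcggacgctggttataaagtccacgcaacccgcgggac
H2-K1 (chr17:34000348-34000597, - strand): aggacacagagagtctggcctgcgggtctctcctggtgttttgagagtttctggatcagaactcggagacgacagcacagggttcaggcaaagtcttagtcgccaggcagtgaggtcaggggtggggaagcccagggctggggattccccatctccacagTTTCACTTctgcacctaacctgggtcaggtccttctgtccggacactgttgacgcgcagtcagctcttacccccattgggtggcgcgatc
Bst2 (chr8:71537473-71537722, - strand): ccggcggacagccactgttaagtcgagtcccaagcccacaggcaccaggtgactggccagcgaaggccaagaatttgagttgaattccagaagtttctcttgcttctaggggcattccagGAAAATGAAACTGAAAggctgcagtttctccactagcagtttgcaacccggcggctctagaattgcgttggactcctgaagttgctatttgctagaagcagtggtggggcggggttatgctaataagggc
The window of B2m holds 1 match to the first pattern, beginning 139 bases before the start, and that of Bst2 holds 2 overlapping matches, beginning 130 and 124 bases before it. H2-D1 and H2-K1 each hold 1 match to the second pattern, 150 and 90 bases before the start (for H2-K1 at the first of 2 start sites listed). Over all 32851 windows of this length in the table, 2.98% hold the first pattern and 1.36% the second. Because the second pattern was chosen from these promoters, its matches here cannot be read against that share. A match describes the letters of the window and is not a measured binding site. The window of Chrm3 holds neither pattern.

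B2m, the light chain of class I molecules, reached 17.0, 6.59 and 12.3 UMIs per 10000 in GqVeh mice 784, 785 and 802, against 1.37 and 2.16 in CNO alone mice C1W7 and C2W2. The lowest GqVeh mouse was above the higher CNO alone mouse, and the group means were 11.97 ± 5.23 (SD, n = 3) in GqVeh mice and 1.77 ± 0.559 (SD, n = 2) in CNO alone mice. The log2 difference was 2.39 ± 0.38 (SE, adjusted p = 0.0127). These levels rest on 347, 17 and 105 UMIs in GqVeh mice and on 48 and 63 UMIs in CNO alone mice. The 2 array pairs, which each held mice of both groups, gave log2 differences of 2.27 (GqVeh 802 minus CNO alone C2W2) and 2.58 (GqVeh 784 and 785 minus CNO alone C1W7). In the two-sided exact permutation test of the 5 mice B2m had p = 0.1, the smallest value the 10 ways of choosing 3 of 5 mice can give.

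The classical heavy chains were higher with it. H2-D1 stood at 6.28, 2.33 and 7.14 UMIs per 10000 in GqVeh mice 784, 785 and 802, against 0.571 and 0.721 in CNO alone mice, with a log2 difference of 2.21 ± 0.39 (SE, adjusted p = 0.0202). H2-K1 stood at 4.12, 1.55 and 4.68 in the GqVeh mice, against 0.428 and 0.377 in the CNO alone mice, with a log2 difference of 2.02 ± 0.39 (SE, adjusted p = 0.0469). Neither gene's groups overlapped, and in both the mouse with 2 discs, 785, was the lowest of its group. In the two-sided exact permutation test of the 5 mice, H2-D1 and H2-K1 each had p = 0.2. The heavy chain genes are close copies of each other, so reads may have been shared between them when they were counted, and the split between H2-D1 and H2-K1 is uncertain. The difference was in the same direction in each array pair: 2.65 and 2.03 for H2-D1, and 2.56 and 1.73 for H2-K1, in pairs 1 and 2. H2-K1 no longer passed when the fit had a block for the array pair (adjusted p = 0.0631).

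Bst2, which encodes tetherin, an interferon-induced membrane protein that holds budding enveloped viruses at the cell surface, was near 0 in uninjected mice. Its levels were 2.01, 0.775 and 1.87 UMIs per 10000 in GqVeh mice 784, 785 and 802, against 0.0571 and 0.103 in CNO alone mice, or 59 UMIs in the GqVeh mice together against 5 UMIs in the CNO alone mice. The log2 difference was 1.76 ± 0.34 (SE, adjusted p = 0.0469), and it did not pass once array pair was a term of the fit (adjusted p = 0.0631). The groups did not overlap. The pooled ratio of UMI shares, GqVeh over CNO alone, was 24.0, with a 95% exact interval of 9.74 to 76.8 that covers counting error only.

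Chrm3, the gene of the M3 muscarinic acetylcholine receptor, had the largest pooled ratio of UMI shares of the 5 genes. It was at 3.29, 1.55 and 1.76 UMIs per 10000 in GqVeh mice 784, 785 and 802, against 0.0285 and 0 in CNO alone mice C1W7 and C2W2. Those levels are 67, 4 and 15 UMIs in the GqVeh mice, against 1 and 0 UMIs in the CNO alone mice. The log2 difference was 2.34 ± 0.41 (SE, adjusted p = 0.0202), and the pooled ratio of UMI shares was 175, with a 95% exact interval for counting error of 30.6 to 6998. hM3Dq is an engineered form of the human M3 receptor, and from values per gene it cannot be told apart whether these UMIs came from the mouse gene or from the viral construct. GqCNO mice 781, 801 and 804, which carried the same virus, had 0.449, 1.02 and 2.74 UMIs per 10000. All 6 injected mice were thus above both uninjected mice. This order was not particular to Chrm3: B2m, H2-D1, H2-K1 and Bst2 had it as well, with B2m at 59.6, 19.4 and 39.0 in GqCNO mice 781, 801 and 804.

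**Figure D2:**
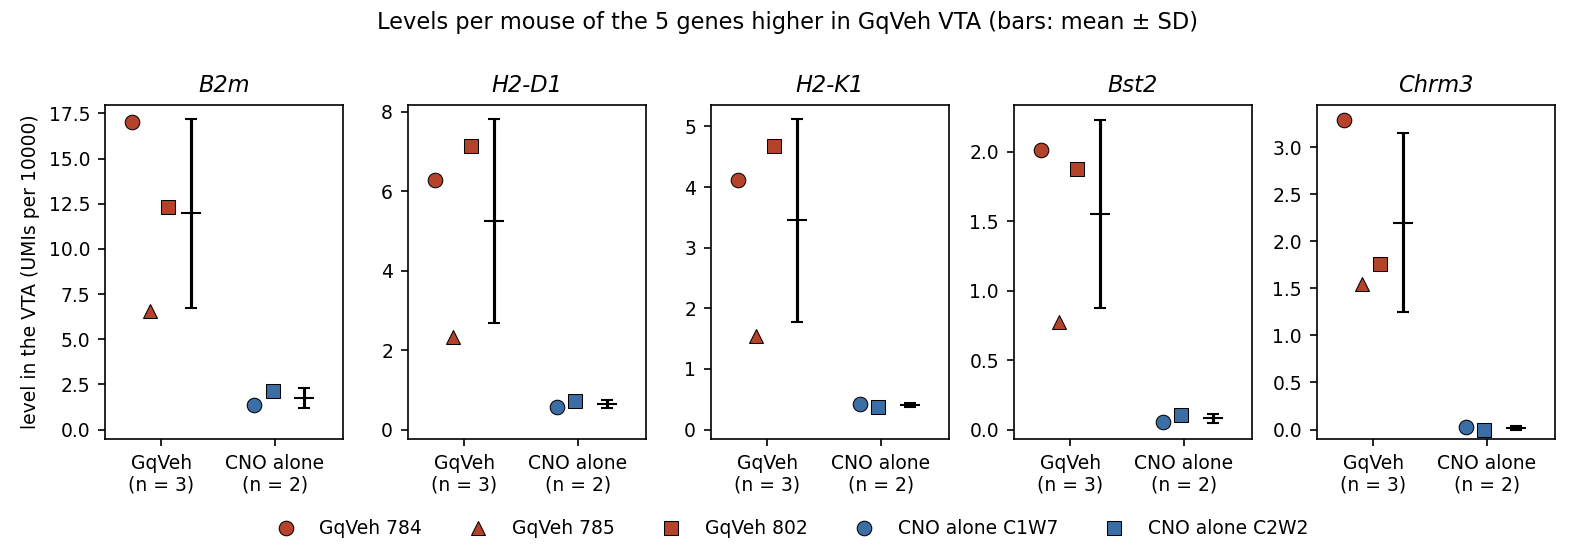
Levels in the VTA (UMIs per 10000, linear axes from 0) of the 5 genes that passed, 1 point per mouse, with the mean and SD of each group beside the points. In every panel the 3 GqVeh mice lie above the 2 CNO alone mice, and GqVeh 785 (triangle, 2 discs) is the lowest GqVeh mouse.

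The other genes of the class I pathway, and those of related responses, were examined as lists, with calls from limma unless edgeR is named. The lists were drawn up with earlier results of these data known. Of 23 genes for class I molecules and their peptide loading, 19 were tested: 3 passed as higher, 0 as lower and 16 did not pass. The median log2 difference of the 19 was 0.40, against -0.01 over all genes tested, and 15 of them were above 0. The summed level of the list was 46.5, 24.0 and 46.4 UMIs per 10000 in GqVeh mice, against 16.3 and 18.1 in CNO alone mice. Without the 3 genes that passed it was 19.1, 13.6 and 22.3 in GqVeh mice, against 14.0 and 14.8 in CNO alone mice, and the groups overlapped. By edgeR 6 of the 19 passed as higher, these 3 among them. Beyond the 3, the smallest limma p was that of the nonclassical heavy chain H2-T22, at 0.883, 0.388 and 0.820 UMIs per 10000 in GqVeh mice 784, 785 and 802, against 0.171 and 0.240 in CNO alone mice, with a log2 difference of 0.74 (adjusted p = 1). Of the MHC class II list, whose products present peptides on microglia and other immune cells, 5 of 7 genes were tested and 0 passed, with summed levels of 0.883, 0.388 and 0.468 in GqVeh mice, against 0.200 and 0.172 in CNO alone mice. These 5 genes were tested only because GqCNO mice were high (Cd74 at 17.75 in mouse 781). In mouse 785 the sum rested on 1 UMI. Levels this low leave the test little room to call a gene, so its result says little about class II.

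Of 42 interferon-stimulated genes 30 were tested, and Bst2 alone passed. All 30 had a log2 difference above 0, as had 48.2% of all genes tested, and their median was 0.58. The filter on low levels included the GqCNO mice, and some of the 30 were tested only because those mice were high. Cxcl10, for example, was at 0.343, 0 and 0 UMIs per 10000 in GqVeh mice, against 0 and 0 in CNO alone mice. It was at 3.82, 0.899 and 0.995 in GqCNO mice 781, 801 and 804. The count above 0 and the median rest partly on such genes. Ifi27, which encodes an interferon-induced membrane protein, was at 2.16, 2.33 and 1.99 UMIs per 10000 in GqVeh mice, against 0.542 and 0.377 in CNO alone mice, with a log2 difference of 1.47 ± 0.31 (SE, adjusted p = 0.0773). Its groups did not overlap, and it was short of the threshold in limma while passing in edgeR.

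The summed level of this list was 36.1, 11.2 and 25.3 UMIs per 10000 in GqVeh mice 784, 785 and 802, against 5.65 and 5.76 in CNO alone mice, and in mouse 785 it rested on 29 UMIs. Ifit1, which binds foreign RNA, was at 2.31, 0 and 1.87 UMIs per 10000 in GqVeh mice 784, 785 and 802, against 0.0571 and 0.0686 in CNO alone mice. Ifi27l2a was at 2.40, 0 and 1.76 in the GqVeh mice, against 0 and 0 in the CNO alone mice. For both, chosen after their values were seen, the GqVeh mice with 13 and 20 discs were above the uninjected mice while the mouse with 2 discs had no UMI, which at its depth allows up to 1.16 UMIs per 10000, less than in the other GqVeh mice. By edgeR, 17 of the 30 tested members passed as higher and 0 as lower. Without mouse 785 limma called 17 genes higher in all, 6 of them in this list.

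Microglia, the resident phagocytes of the brain, carry the genes of the next lists. Of 8 tested genes of homeostatic microglia (13 listed), 0 passed, with a median of 0.60 and all 8 above 0. Csf1r, the receptor microglia need to survive, was at 0.981, 0.388 and 1.29 UMIs per 10000 in GqVeh mice, against 0.200 and 0.309 in CNO alone mice. P2ry12, a defining microglial receptor and 1 of the genes by which discs were left out, was below the filter on low levels: it was at 0.245, 0 and 0 in GqVeh mice 784, 785 and 802, against 0.114 and 0.0686 in CNO alone mice. The summed level of the 13 genes was 3.88 to 9.95 in GqVeh mice and 2.68 to 2.88 in CNO alone mice, with no overlap. P2ry12 itself overlapped, at levels too low to separate the groups. Aif1, the other microglial gene by which discs were left out, was at 0.736, 0.388 and 0.820 in GqVeh mice 784, 785 and 802. In CNO alone mice Aif1 was at 0.200 and 0.103, without overlap, and it did not pass (log2 difference 0.80). Its level in mouse 785 rested on 1 UMI.

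Of 19 tested genes of activated microglia and macrophages (26 listed), 0 passed and the median was 0.58. Ctss, a protease of the endosomes in which antigens are cut, was at 5.40, 0.775 and 6.09 UMIs per 10000 in GqVeh mice, against 0.5996 and 0.618 in CNO alone mice, with a log2 difference of 1.73 ± 0.51 (SE, adjusted p = 1). Ctsd, another lysosomal protease, was at 10.1, 6.20 and 12.9, against 4.11 and 5.25. The summed level of this list, which includes genes that neurons express as well, overlapped between the groups, at 89.1 to 166 in GqVeh mice and 122 to 145 in CNO alone mice. Of the complement list, 8 of 14 genes were tested and 0 passed, with a median of 0.66 (0.26 without mouse 785, when 9 genes were tested). Its subunits of C1q, the recognition protein of the classical pathway, were lower in mouse 785 than in the other GqVeh mice: C1qb was at 3.83, 0.775 and 3.28 in GqVeh mice, against 0.685 and 0.583 in CNO alone mice, and C1qa at 4.37, 0 and 3.75, against 0.3997 and 0.412. By edgeR 4 of the 8 complement genes, 6 of the 19 activated genes and 2 of the 8 homeostatic genes passed as higher. Without mouse 785 limma called C1qa, C1qb and C1qc higher (adjusted p = 0.00365, 0.0328 and 0.0185). In that fit Ctss and Tyrobp of the activated list passed as well (adjusted p = 0.00499 and 0.0328). The part of microglial RNA in the class I difference was not tested.

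Defining markers of lymphocytes were at or near 0. Of 20 genes of T cells and other lymphocytes, 5 passed the filter on low levels, 10 had no UMI in any of the 5 mice, Cd3e among them, and 0 passed in limma. Igkc, which had no UMI in these 5 mice either, passed the filter through GqCNO 801 (9.23 UMIs per 10000). The chemokine Ccl5 was at 1.13, 0 and 2.11 UMIs per 10000 in GqVeh mice, against 0.0571 and 0 in CNO alone mice, with overlapping groups, and was the only gene of this list that passed in edgeR (adjusted p = 0.0024). Of 17 cytokines and chemokines only 3 passed the filter, and 0 passed in either test.

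Astrocyte genes did not share 1 direction. Gfap, the intermediate filament of reactive astrocytes and 1 of the genes by which discs were left out, was at 4.66, 0.775 and 4.80 UMIs per 10000 in GqVeh mice 784, 785 and 802, against 0.3997 and 0.480 in CNO alone mice (log2 difference 1.80 ± 0.44, SE, adjusted p = 0.419). Its groups did not overlap, but the level in mouse 785 rested on 2 UMIs. S100b, a calcium-binding protein of astrocytes that oligodendrocytes make as well, was at 4.02, 3.49 and 3.16, against 7.34 and 6.76 (log2 difference -0.90 ± 0.27, SE, adjusted p = 1), and Slc1a3, a glutamate transporter, at 0.981, 0 and 0.703, against 1.60 and 1.78. Of the 20 astrocyte markers, all tested, 0 passed, 16 were below 0 and the median was -0.31 (-0.07 without mouse 785). Their summed level was 49.2 to 74.1 in GqVeh mice and 78.4 to 81.5 in CNO alone mice. Of 7 tested genes of reactive astrocytes (24 listed) 0 passed in limma, with a median of 0.26, and 2 passed as higher in edgeR, Gfap and Serpina3n. Gfap also passed in limma without mouse 785 (adjusted p = 0.00169).

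Oligodendrocyte genes, which serve myelin, had the lowest median among the lists with at least 5 tested members, at -0.49, with 14 of 15 below 0 and 0 passing. Mal, a lipid raft protein of myelin, was at 1.52, 0.388 and 2.23 UMIs per 10000 in GqVeh mice, against 3.06 and 3.26 in CNO alone mice (log2 difference -1.11). Without mouse 785 the list's median was -0.22. In such mixed discs fewer cells of a type and less RNA per cell cannot be told apart.

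**Figure D3:**
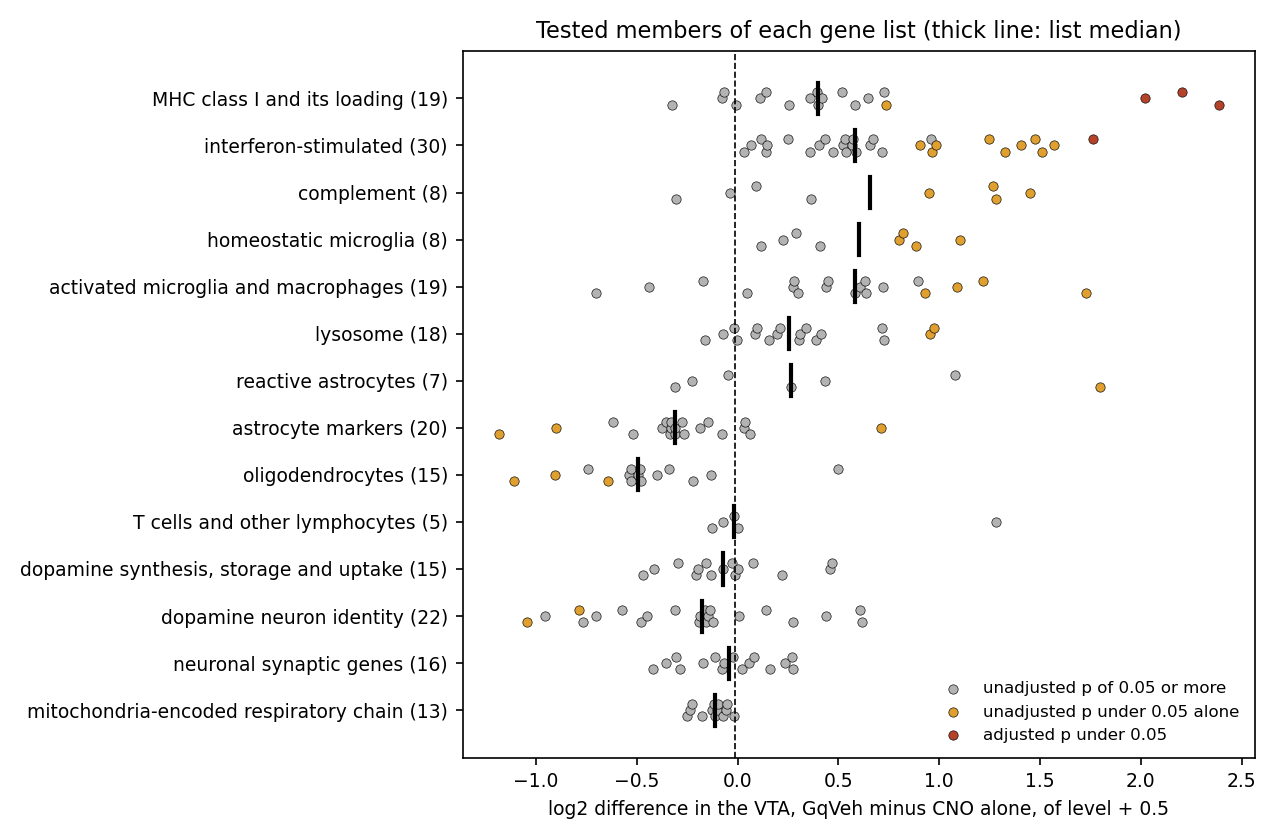
Log2 differences in the VTA (GqVeh minus CNO alone) of the tested members of 14 gene lists, 1 point per gene, with the number tested in brackets, the list median as a thick line and the median of all genes tested dashed. Red points (adjusted p under 0.05) occur in the class I and interferon lists, whose medians are 0.40 and 0.58, while oligodendrocyte and astrocyte genes lie mostly left of 0, with medians of -0.49 and -0.31 (-0.22 and -0.07 without mouse 785).

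The dopamine genes by which discs were chosen did not separate the groups. Th, the rate-limiting enzyme of dopamine synthesis, was at 20.5, 26.7 and 19.2 UMIs per 10000 in GqVeh mice, against 28.1 and 25.97 in CNO alone mice, with a log2 difference of -0.29 ± 0.39 (SE, adjusted p = 1). Slc6a3, the dopamine transporter, was at 3.43, 4.65 and 4.57, against 5.51 and 4.05, and Slc18a2, the vesicular monoamine transporter, at 6.57, 11.6 and 8.67, against 8.91 and 8.89. Of the 15 genes that make, store or take up dopamine, all tested, 0 passed and the median was -0.07. Of 22 tested identity genes of dopamine neurons (29 listed) 0 passed and the median was -0.18. The summed level of the 29 was 41.5 to 53.9 in GqVeh mice and 55.3 to 56.5 in CNO alone mice, without overlap. Of the 22, 7 were lower and 3 higher without overlap, against 9.2% of all genes tested in each direction. Nr4a2, a transcription factor that maintains dopamine neurons, had no overlap between the groups, at 0.736, 0.388 and 0.703 in GqVeh mice, against 1.31 and 1.48 in CNO alone mice (log2 difference -0.79, adjusted p = 1). Tacr3, a neurokinin receptor, was at 0.736, 0.388 and 0, against 0.999 and 1.41. Synaptic genes (16 tested, median -0.04), axon cytoskeleton genes (15 tested, median -0.04) and mitochondria-encoded genes of the respiratory chain (13 tested, median -0.11) had 0 genes that passed. Without mouse 785 the medians were -0.19 for the 15 dopamine genes, -0.28 for the identity genes, -0.13 for the axon cytoskeleton and 0.01 for the mitochondria-encoded genes.

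The remaining lists, on precursors of oligodendrocytes, vessels, blood, other neurons, nerve injury, activity, glucocorticoid response, stress of the endoplasmic reticulum, DNA damage, nucleic acid sensing and lysosomes, had 0 genes that passed in limma, while edgeR called Cdkn1a, Ddit3 and Laptm5 higher. Among their members with the smallest p were Cdkn1a, a cell cycle inhibitor induced by p53, at 1.08, 0.388 and 2.11 UMIs per 10000 in GqVeh mice, against 0.228 and 0.240 in CNO alone mice, Ddit3, a stress-induced transcription factor, at 1.52, 0.775 and 1.41, against 0.485 and 0.309, and the lysosomal gene Grn, at 1.28, 1.55 and 1.52, against 0.3997 and 0.618. None of these overlapped between the groups. Non-overlap itself was common: 9.2% of the genes tested had all 3 GqVeh mice above both CNO alone mice, and 9.2% had them below. Among genes with an unadjusted p under 0.05 that were lower without overlap (74 genes, 1.17%), the largest log2 differences were those of Sst, the peptide somatostatin (-1.26), Efnb3, a guidance ligand (-1.20), and Slc1a3 (-1.19). Mouse 785 had no UMI for any of the 3, and an adjusted p under 0.05 was reached by none.

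The same contrast in other regions shows where the difference was present. In the substantia nigra (SN), the other injected dopamine region, 4 of 6174 genes passed as higher (0.0648%): B2m, H2-K1, Gfap and Ctss. SN B2m levels were 28.3, 10.0 and 11.9 UMIs per 10000 in GqVeh mice 784, 785 and 802, against 1.25 and 1.85 in CNO alone mice. The SN of mouse 784 had only 11644 UMIs, where 3 UMIs are 2.58 per 10000, so its levels are the least precise of these mice. In the thalamus of the same midbrain sections, 0 of 6399 genes passed in either direction, and B2m was at 1.38, 1.97 and 2.14, against 1.25 and 1.36. In the caudate putamen (CP), B2m was at 0.795, 0.874 and 0.816, against 0.852 and 0.668, with overlapping groups, and 0 of 10813 genes passed. The lateral septal complex (LSX) and the white matter also had 0 genes that passed. In the LSX the heavy chains lay on the other side without passing. H2-K1 was at 0, 0.147 and 0.0579 in GqVeh mice 784, 785 and 802, against 0.355 and 0.266 in CNO alone mice. Its log2 difference was -1.81 (adjusted p = 0.999) and that of H2-D1 was -1.36 (adjusted p = 0.999), both after adding 0.05. The LSX of GqVeh 784 had 6 discs, where 3 UMIs are 0.279 per 10000, so its level of 0 is imprecise. In these 4 regions 19 to 349 genes per region and direction had an unadjusted p under 0.05. Chrm3 was at 5.15, 0.702 and 2.02 in the SN of GqVeh mice, against 0.278 and 0 in CNO alone mice, and at or below 0.0995 in the thalamus and CP of all 5 mice.

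**Figure D4:**
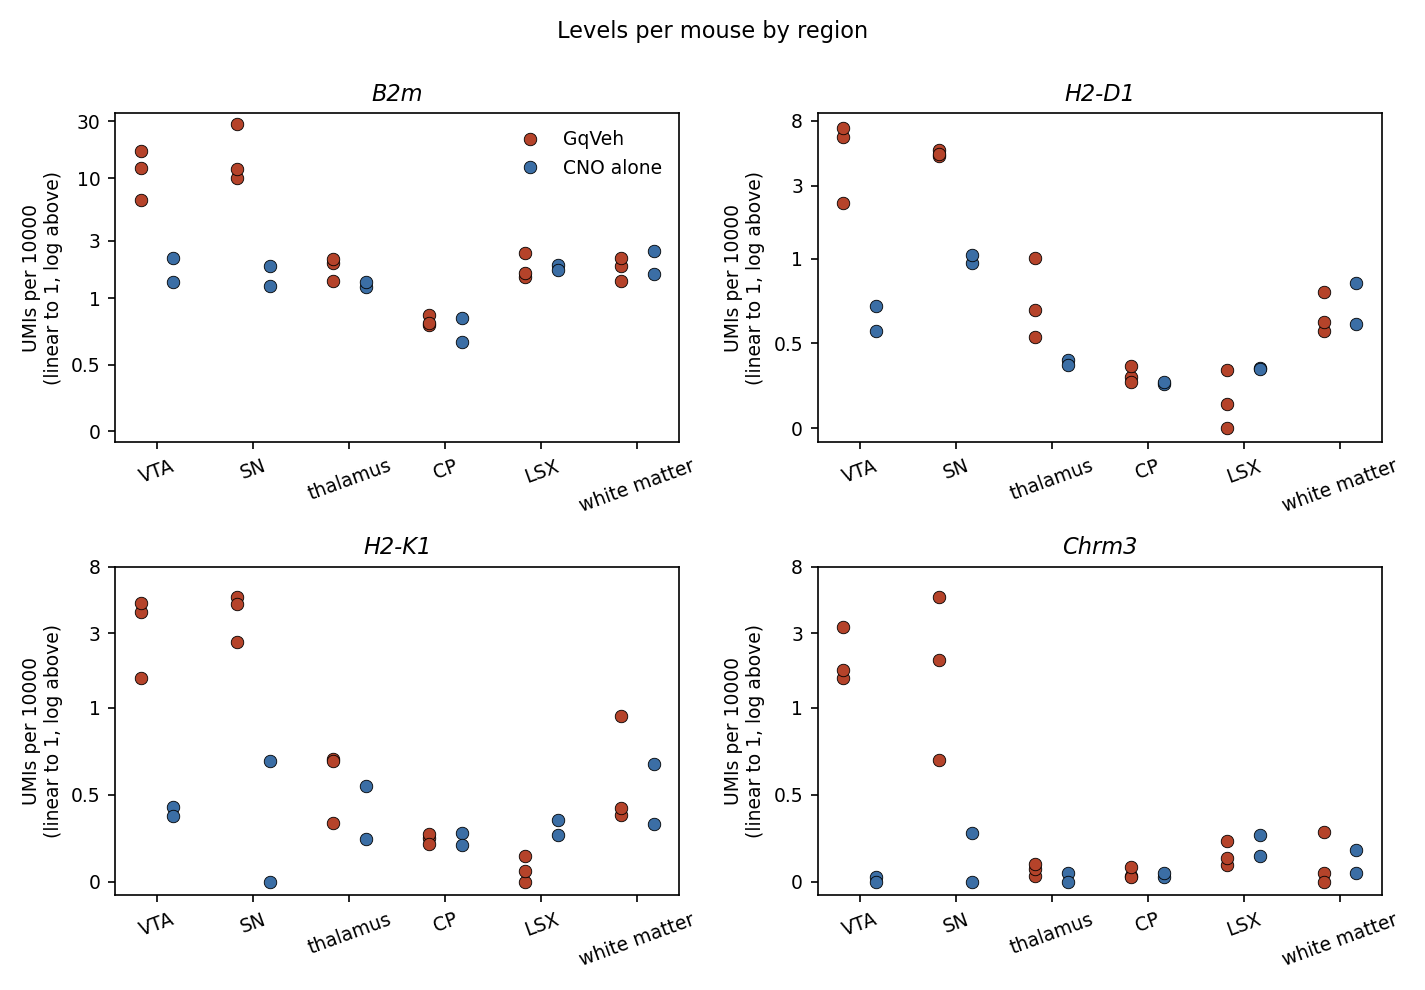
Levels of B2m, H2-D1, H2-K1 and Chrm3 per mouse in 6 regions (UMIs per 10000, y axis linear up to 1 and logarithmic above), with GqVeh mice left of CNO alone mice in each region. GqVeh mice stand above CNO alone mice in the VTA and SN, while in the CP the points of the groups lie together.

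Whether the difference itself differed between regions was tested on the difference of log2 levels within each mouse. For VTA minus SN, 0 of 5341 genes passed, with 76 (1.42%) at an unadjusted p under 0.05, and B2m differed by -0.55 ± 0.65 (SE, adjusted p = 1). For VTA minus thalamus, 0 of 5366 genes passed, with 187 (3.48%) at an unadjusted p under 0.05. B2m had a log2 difference larger by 2.03 ± 0.56 (SE, adjusted p = 0.997) in the VTA than in the thalamus, H2-K1 by 1.75 (adjusted p = 0.997) and H2-D1 by 1.73 (adjusted p = 0.997). Without mouse 785, 4 genes passed in this test: B2m, H2-K1, Ctss and C1qc. The size of the class I difference in the VTA was thus not distinguishable from that in the SN. The excess over the thalamus passed for B2m and H2-K1 only without the mouse with 2 discs, and for H2-D1 it did not pass.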

How the data were processed

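The authors aligned and counted Visium libraries with Space Ranger on mm10 (version and annotation release not given in the sources used here), chose discs per region and mouse in Loupe Browser, and deposited a signal per gene, the median-normalized average over those discs. In the VTA columns 100% of the values up to 200 steps were whole multiples of 1 step per column (within 0.05 steps), so UMI counts were recovered. A label per disc, of another kind, as deposited, gave disc numbers. Columns were rescaled to 10000. Genes with a mean of at least 0.25 over 8 mice were tested on log2(level + 0.5) with limma 3.58.1 in R 4.3.3 (group means, variance trend, Benjamini-Hochberg). The recovered counts were tested with edgeR 4.0.16. The labels place the mice on 2 array pairs, each with both groups, which served as a block. They also tag each mouse C1 or C2, a tag that goes with the array pair. Across 6312 genes, the differences between pairs within GqVeh and within CNO alone correlated at r = 0.07 (a description). The scripts were tested on simulated data.

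The text names B2m and H2-K1, genes with an adjusted p under 0.05, the largest non-overlapping differences at an unadjusted p under 0.05, up to 4 members of each of 27 lists by p, and the genes used to choose discs; some genes that this rule names are not reported here. The members and lists were chosen with earlier results of these data known. Promoters and gene positions came from RefSeq tables of GRCm38.p6, matched by symbol for 6233 of 6312 genes. Alternatives changed the scaling, added constant, filter, samples, block, variance trend, test and depth.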

Additional observations from a re-analysis of the deposited data

Results flagged for a closer look

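The class I heavy chains H2-D1 and H2-K1 had differences of opposite sign in the VTA and LSX, with no overlap between the groups in either region. For H2-D1 the log2 difference was 2.21 in the VTA and -1.36 in the LSX. For H2-K1 it was 2.02 in the VTA and -1.81 in the LSX. These values were taken after adding 0.5 in the VTA but 0.05 in the LSX. The smaller constant gives larger log2 differences at low levels, so the sizes cannot be compared between the regions. Neither gene passed in the LSX, where GqVeh 784 had no UMI for either gene, and the difference between these regions was not tested. The LSX of GqVeh 784 had 6 discs, and at its depth no UMI allows up to 0.279 UMIs per 10000. That is above the H2-K1 level of CNO alone C2W2 (0.266), so the lack of overlap for H2-K1 in the LSX is uncertain. For H2-D1 the CNO alone mice C1W7 and C2W2 were above it, at 0.355 and 0.347.

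Mbp, a myelin gene, had differences of opposite sign in 2 regions of the same sections, and passed the test in neither. In the VTA it was at 44.5, 25.6 and 39.1 UMIs per 10000 in GqVeh mice 784, 785 and 802, against 54.7 and 56.5 in CNO alone mice (log2 difference -0.64). In the thalamus it was at 31.2, 36.7 and 40.7 in GqVeh mice, against 29.8 and 23.8 in CNO alone mice (log2 difference 0.43). The limma test of the difference between the regions gave -1.07 ± 0.39 (SE, adjusted p = 0.997).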

How the results depend on the processing

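The 5 genes that passed as higher kept their direction under all 20 alternatives, but not their call: B2m stayed past the threshold in 12, H2-D1 in 10, Chrm3 in 9, Bst2 in 7 and H2-K1 in 6. The count of higher genes was 3 with values as deposited, 3 with the array pair as a block, 3 with all columns thinned to 25808 UMIs, 1 with an added constant of 1, and 0 with TMM scaling, without a filter, with the 5 mice alone, and without the variance trend. edgeR gave 45. The methods' t-test called 86 genes higher and 101 lower before adjustment, at 0.05, and 0 higher after Benjamini-Hochberg. Leaving out 1 mouse at a time gave 0 to 17: 17 without GqVeh 785, 1 without CNO alone C2W2, and 0 without GqVeh 784, GqVeh 802 or CNO alone C1W7. An alternative chosen after seeing the data, without GqVeh 785 and without the GqCNO mice, gave 32. All 5 genes were among the 45, the 17 and the 32. The cause of the other changes was not tested. For VTA minus thalamus, leaving out 1 mouse gave 0 to 4 genes. Over its alternatives the adjusted p of B2m ran between 1.5e-05 and 1.0, and its log2 difference between 2.09 and 2.82. TMM scaling moved the median of all genes by less than 0.1, to -0.05.

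Directions reversed only for genes that had not passed. When thinned, the log2 difference was 0.073 for Gng2, 0.31 for Stard3nl, -0.20 for Fgfr3 and 0.36 for Slc6a3. Aldh1l1 was at 0.097 in edgeR and at 0.13 without GqVeh 785 and the GqCNO mice, and Slc18a2 at 0.0088 in the methods' t-test. With 1 mouse left out at a time, Slc6a3 ran between -0.36 and 0.042, Slc18a2 between -0.22 and 0.17 and Aldh1l1 between -0.61 and 0.13. With the array pair as a replicate block, 0 genes passed in the tests of VTA minus SN and VTA minus thalamus. Of the VTA values of the 5 mice, depth limits those of GqVeh 785 most (3 UMIs are 1.16 per 10000).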

Other observations

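Genes of 1 stretch of chromosome 13 (chr13:18717292-19619830 on GRCm38.p6), chosen after their values were seen, had lower means in GqVeh than in CNO alone mice in the VTA and CP. The stretch runs from the start of Vps41 to the end of Epdr1, genes that were themselves chosen for their values. The 4 genes tested there all had a log2 difference below 0 in the VTA, 3 of them without overlap, and 0 passed. Of all genes tested, 9.2% were lower without overlap. Because the genes set the ends of the stretch, these counts follow from the choice and cannot be read against that share. Epdr1 was at 0.442, 0.388 and 0.468 UMIs per 10000 in the VTA of GqVeh mice 784, 785 and 802, against 1.06 and 1.17 in CNO alone mice (log2 difference -0.79, adjusted p = 1), and at 0.535, 0.545 and 0.459 in their CP, against 0.920 and 0.970. Vps41 was at 0.589, 0.388 and 1.17 in the VTA of GqVeh mice, against 1.23 and 1.54, and at 0.548, 0.533 and 0.627 in their CP, against 1.05 and 1.25. Stard3nl was at 0.540, 0.388 and 0 in the VTA of GqVeh mice, against 1.03 and 0.892, and at 0.298, 0.281 and 0.230 in their CP, against 0.548 and 0.459. Amph overlapped in the VTA, at 0.393, 1.16 and 0.468 in GqVeh mice, against 1.03 and 1.58, and was at 0.248, 0.320 and 0.298 in their CP, against 0.568 and 0.639. In the CP the smallest adjusted p among these was 0.0855, for Vps41 and Amph. These genes lay outside the antigen-presentation and interferon lists, and no explanation was tested.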
